A study of Bos taurus with 10 samples.

Results

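Expression of 6 genes of fat synthesis was examined in the longissimus muscle of steers: the enzymes ACLY (ENSBTAG00000016740), ACACA (ENSBTAG00000017567), FASN (ENSBTAG00000015980), SCD (ENSBTAG00000045728) and DGAT1 (ENSBTAG00000026356), and the transcription factor SREBF1 (ENSBTAG00000007884). The genes were taken by identifier, with no threshold on their values, and all 6 identifiers were found among the 16963 rows of the deposited count table. The table names no genes. The names used here came with the list of identifiers, and the reference table at hand (RefSeq, assembly ARS-UCD2.0) lists the 6 symbols but pairs none of them with an Ensembl identifier. The animals were male Angus x Simmental crosses, 385 ± 5 days old per the labels. The dams of 5 steers had received dried distillers grains and solubles (DDGS) while nursing, and those of the other 5 had been given the control diet, labelled SBM. What the steers themselves were fed and who their sires were is not given in the sources used here, and each library is 1 animal. The comparison addresses whether a dam's diet during lactation is reflected in the muscle of her grown progeny.

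In lipogenesis, ACLY splits cytosolic citrate into acetyl-CoA, ACACA (acetyl-CoA carboxylase) turns acetyl-CoA into malonyl-CoA, and FASN (fatty acid synthase) builds palmitate from both. SCD (stearoyl-CoA desaturase) places a double bond in saturated acyl chains, which yields oleate, and DGAT1 joins an acyl chain to diacylglycerol in the last step of triglyceride formation. SREBF1 encodes SREBP-1, a precursor held in the membrane of the endoplasmic reticulum. Its released N-terminal part activates genes of fatty acid synthesis, so the amount of its mRNA need not follow its activity. In muscle, these enzymes are best known from the adipocytes of marbling fat, and muscle fibres carry some of them too. In whole muscle, fewer cells of a type and less RNA per cell cannot be told apart.

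Libraries held 16942156 to 24936741 counts, and 48.9 to 54.1% of them fell on the pair of most abundant rows. A count of 0 would allow up to 3 counts, which is 0.120 to 0.177 CPM (counts scaled to the library total), and this limit covers counting error only. The table holds no 0, and its lowest value is 1. Rows at 1 numbered 5078 in DDGS replicate 3 and 2524 to 4699 in the other libraries. Markers of muscle fibres, adipocytes, fibroblasts, vessels and blood, and the further lipogenic genes listed for the pathway, are known here by symbol only and were not analysed. The other CPM values use TMM library sizes, which correct the totals for differences in composition. Levels are not compared between genes, since transcript lengths were not used.

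The 4 enzymes from citrate to oleate differed widely between animals and moved together across both diet groups. DDGS replicate 3 was the lowest of the 10 animals for ACLY, ACACA, FASN, SCD and DGAT1, but was near the middle for SREBF1. No difference between the diets passed the test for any of the 6 genes.

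ACLY stood at 84.2, 35.3, 6.53, 97.6 and 59.6 CPM in DDGS replicates 1 to 5 and at 32.04, 161, 28.9, 31.7 and 47.9 CPM in SBM replicates 1 to 5. The highest animal was SBM replicate 2, while the next SBM animal stood at 47.9 CPM. The groups overlapped. The mean was 56.6 ± 36.8 CPM in DDGS and 60.4 ± 56.9 CPM in SBM (SD, n = 5 each). The log2 fold change, DDGS over SBM, was -0.09 (SE 0.76; edgeR quasi-likelihood test, adjusted p = 0.998). The fold change on this scale was 0.69 without SBM replicate 2 and 0.20 without DDGS replicate 3.

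ACACA had 194, 145, 21.5, 325 and 231 CPM in DDGS replicates 1 to 5. In SBM replicates 1 to 5 it had 124, 270, 105, 101 and 197 CPM. Apart from DDGS replicate 3, which was 4.69-fold below the next animal, the values of both groups lay within a 3.22-fold range and overlapped. Means were 183 ± 112 CPM in DDGS and 159 ± 73 CPM in SBM (SD, n = 5 each), with a log2 fold change of 0.20 and a standard error of 0.62 (edgeR adjusted p = 0.996).

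FASN, which carries out the chain building itself, was at 314, 269, 31.5, 587 and 567 CPM in DDGS replicates 1 to 5. In SBM replicates 1 to 5 it was at 254, 546, 227, 138 and 525 CPM. Both diets held animals at 525 to 587 CPM (DDGS replicates 4 and 5, SBM replicates 2 and 5) and animals at or below 314 CPM. Group means were 354 ± 231 CPM in DDGS and 338 ± 185 CPM in SBM (SD, n = 5 each), and the log2 fold change was 0.07 (SE 0.71; edgeR adjusted p = 0.999).

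SCD had 581, 351, 36.8, 630 and 568 CPM in DDGS replicates 1 to 5. Its SBM values, in the same order, were 299, 523, 252.3, 256 and 525 CPM. DDGS replicates 1, 4 and 5 were higher than every SBM animal, while DDGS replicate 3 was lower than every one of them by at least 6.85-fold. Group means were 433 ± 246 CPM in DDGS and 371 ± 141 CPM in SBM (SD, n = 5 each), and the log2 fold change was 0.22 (SE 0.64; edgeR adjusted p = 0.996). Without DDGS replicate 3 it was 0.52 (SE 0.25), and its 95% interval ran from 0.994-fold to 2.08-fold (edgeR unadjusted p = 0.0535, adjusted p = 0.99996). This animal was singled out after its values were seen.

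DGAT1 had few reads, 7 to 178 counts per library. It stood at 2.98, 4.42, 0.476, 5.15 and 5.24 CPM in DDGS replicates 1 to 5 and at 1.38, 4.25, 4.65, 2.57 and 9.33 CPM in SBM replicates 1 to 5. The 7 counts of DDGS replicate 3 have an exact 95% Poisson interval of 2.81 to 14.4 counts, or 0.191 to 0.981 CPM, for counting error only. This interval lies below the measured value of every other animal. It overlaps the interval of SBM replicate 1 (24 counts), which is 0.886 to 2.06 CPM. Apart from DDGS replicate 3, SBM replicate 1 was lowest and SBM replicate 5 highest. Means were 3.65 ± 1.99 CPM in DDGS and 4.44 ± 3.03 CPM in SBM (SD, n = 5 each). The log2 fold change was -0.28 (SE 0.56; edgeR adjusted p = 0.996).

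SREBF1 varied least of the 6 genes. Its values were 22.2, 24.5, 27.9, 36.2 and 30.4 CPM in DDGS replicates 1 to 5 and 28.9, 31.7, 27.4, 19.8 and 37.2 CPM in SBM replicates 1 to 5. The highest animal exceeded the lowest by 1.88-fold, against 15.1-fold to 24.7-fold for the 5 enzymes. Leaving out DDGS replicate 3, the range was again 1.88-fold for SREBF1, and 2.50-fold for SCD, 3.22-fold for ACACA, 4.24-fold for FASN, 5.57-fold for ACLY and 6.75-fold for DGAT1. With means of 28.3 ± 5.4 CPM in DDGS and 29.0 ± 6.3 CPM in SBM (SD, n = 5 each), the log2 fold change was -0.04 (SE 0.19; edgeR adjusted p = 0.998).

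**Figure D1:**
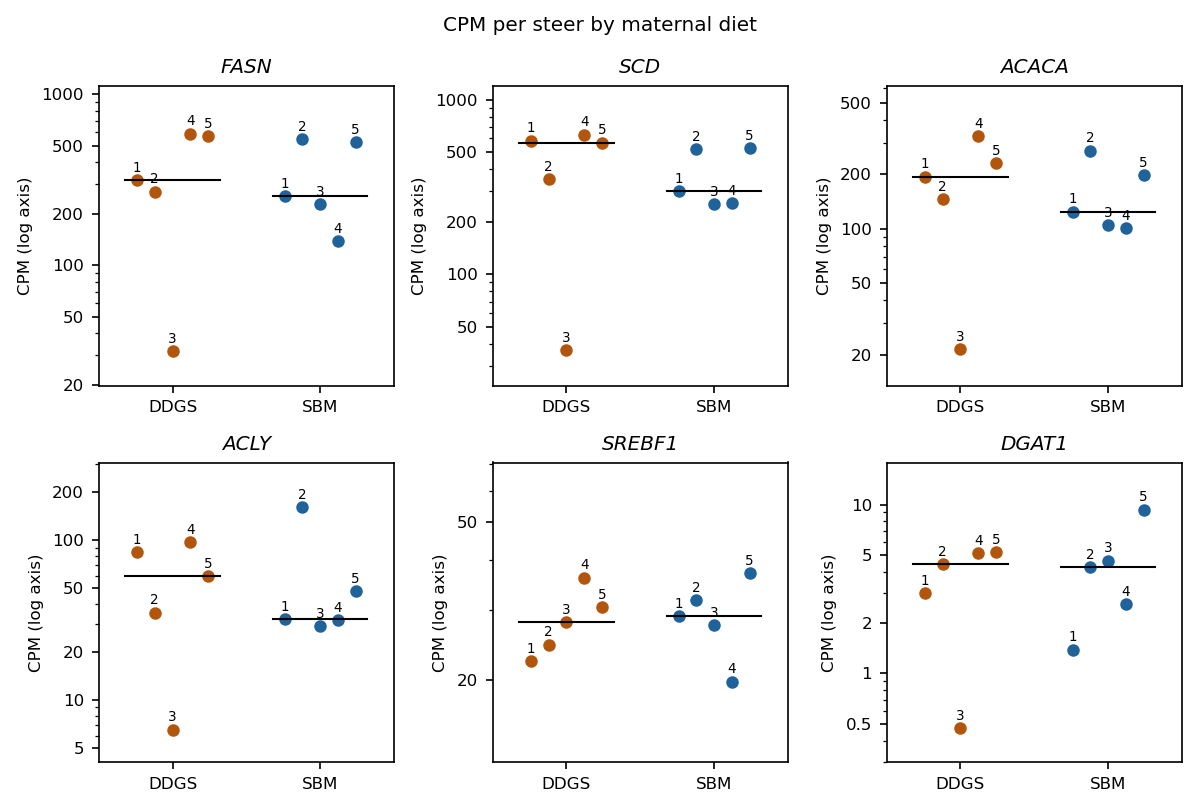
CPM of each gene in each steer on a log axis, by maternal diet (DDGS orange, SBM blue). Numbers are replicates and black lines are group medians. DDGS replicate 3 is the lowest point in every panel but SREBF1, where it stands at 27.9 CPM among values of 19.8 to 37.2 CPM.

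Of the 6 genes 0 were called at a Benjamini-Hochberg adjusted p under 0.05 in edgeR's quasi-likelihood test, where 0 of all 12295 genes tested, or 0%, were called. At an unadjusted p under 0.05 there were again 0 of the 6, against 3.74% of all genes (460). DESeq2 called 0 of the 6 and 15 of 14085 genes, 0.106%, and limma voom called 0 in both. For 0 of the 6 did the groups not overlap in CPM, against 0.781% of the genes tested. The median log2 fold change was 0.014 over the 6 genes, 3 above 0 and 3 below, and -0.012 over all genes tested. All 6 genes had passed edgeR's filter on low counts.

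The width of the intervals differed greatly within the set. For SREBF1 the 95% interval of the fold change, unadjusted for the number of genes, ran from 0.737 to 1.29. For FASN it ran from 0.339 to 3.23, for SCD from 0.424 to 3.22, for ACACA from 0.430 to 3.07, for ACLY from 0.279 to 3.16 and for DGAT1 from 0.366 to 1.86. A difference of 2-fold in either direction thus lay outside the interval of SREBF1 and, for the enzymes, inside it, except that the upper end of DGAT1 fell short of 2-fold. For 3 enzymes this rested on DDGS replicate 3: without it the lower ends were 0.609 for FASN, 0.994 for SCD and 0.838 for ACACA, so that a 2-fold lower level in DDGS lay outside, while those of ACLY (0.413) and DGAT1 (0.495) still included it. DDGS replicate 3 was singled out after its values were seen, and leaving out so low an animal raises the DDGS level by itself. Its removal gave upper ends of 2.03 (DGAT1) to 3.18 (ACLY) for the 5 enzymes. With non-robust estimates in edgeR and all animals, the lower ends of SCD (0.586) and ACACA (0.587) also excluded a 2-fold lower level. Without DDGS replicate 3 the log2 fold changes of FASN, SCD and ACACA were 0.36, 0.52 and 0.49, and that of DGAT1 was 0.0038, each with an adjusted p of 0.99996 in edgeR.

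**Figure D2:**
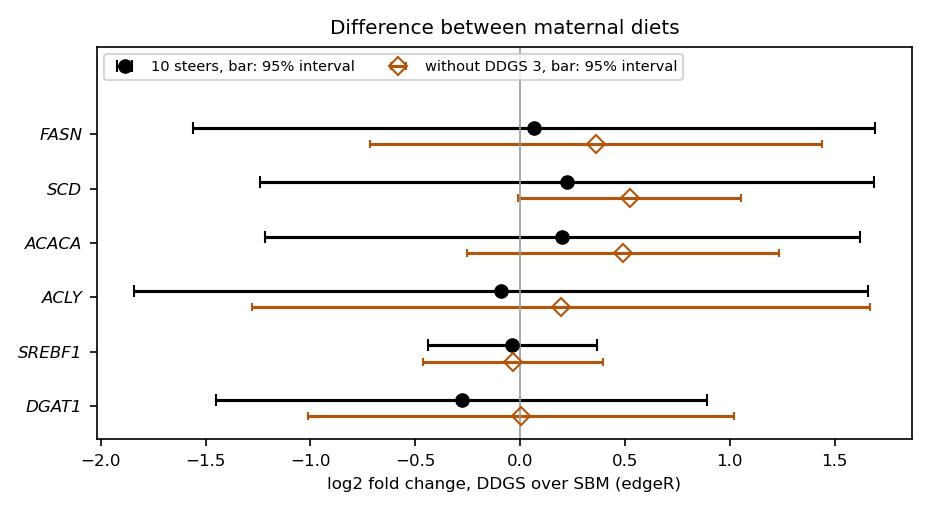
Log2 fold change (DDGS over SBM) of each gene with its unadjusted 95% interval in edgeR's quasi-likelihood test, for all 10 steers (black circles) and without DDGS replicate 3 (open diamonds). Every interval includes 0, and that of SREBF1, from 0.737-fold to 1.29-fold with all steers, is the narrowest.

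For FASN, SCD and ACACA, but not for ACLY, DGAT1 and SREBF1, the sign of the difference depended on how animals were averaged. On the log2(CPM + 1) scale, where a very low animal weighs more, DDGS minus SBM was -0.27 for FASN, -0.19 for SCD, -0.12 for ACACA, -0.18 for ACLY, -0.22 for DGAT1 and -0.03 for SREBF1. The exact two-sided permutation p ran from 0.730 (DGAT1) to 0.960 (SCD) over the 6 genes (n = 5 each; smallest possible p = 0.00794). Without DDGS replicate 3 the same differences were 0.46, 0.57, 0.54, 0.45 and 0.15 for the 5 enzymes in that order, and the smallest exact permutation p was 0.111, for SCD (4 against 5 animals). The difference between group means took up 0.264% (SREBF1) to 2.12% (DGAT1) of the sum of squares across all 10 animals on this scale. In a calculation without DDGS replicate 3, added after these values were seen, this share was 31.0% for SCD, 22.3% for ACACA, 11.1% for FASN, 7.63% for ACLY, 1.85% for DGAT1 and 0.253% for SREBF1. With so few animals, a sizeable share can arise where diet has no effect. The exact permutation p of 0.111 for SCD belongs to the largest of these shares.

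Against the mean of the other DDGS animals, the shortfall of DDGS replicate 3 was of similar size in the 5 enzymes, for DGAT1 on only 7 counts. The mean of the other 4 DDGS animals exceeded it 13.8-fold for FASN, 14.5-fold for SCD, 10.4-fold for ACACA, 10.6-fold for ACLY and 9.35-fold for DGAT1, and 1.01-fold for SREBF1. Against the next lowest of all 10 animals, it was 4.39-fold lower for FASN, 6.85-fold for SCD, 4.69-fold for ACACA, 4.43-fold for ACLY and 2.91-fold for DGAT1. A level at least 4-fold below the next lowest animal, a limit set after these values were seen, held in DDGS replicate 3 for 4 of the 6 genes and for 3.38% of the 11476 tested rows averaging 1 CPM or more (388 rows). In each of the other 9 libraries 0.0523% to 2.81% of rows met it. None of these libraries could meet it for the 5 enzymes, where DDGS replicate 3 was lowest. Nor could any for SREBF1, whose whole range was 1.88-fold. Their 0 of the 6 genes is therefore no separate result. This library also had the most rows at 1 of all, 5078, and the smallest TMM factor, 0.845 against 0.914 to 1.15, and their part in its low values was not tested.

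Ratios to FASN within a library, which do not depend on library scaling, were compared between DDGS replicate 3 and the other animals. The CPM ratio of SCD to FASN was 1.17 in DDGS replicate 3. It was 0.957 to 1.31 in 7 of the other animals, and 1.85 in both DDGS replicate 1 and SBM replicate 4. The ratio of ACACA to FASN was 0.681 in DDGS replicate 3 and 0.376 to 0.728 in the others. That of ACLY to FASN was 0.207 there and 0.0911 to 0.296 in the others, with SBM replicate 2 highest. For DGAT1 it was 0.0151 there and 0.00544 to 0.0205 in the others. With 7 DGAT1 counts in DDGS replicate 3 (Poisson interval 2.81 to 14.4 counts), this ratio is too coarse to show a kept proportion. These 4 ratios of DDGS replicate 3 therefore lay inside the range of the other 9 animals, although the levels lay far below it. The ratio of SREBF1 to FASN did not: it was 0.886 in DDGS replicate 3 and 0.0537 to 0.143 in the others. Between the diets, none of the 5 log2 ratios differed beyond the spread of the animals (smallest exact two-sided permutation p = 0.452, ACACA to FASN, n = 5 each). DDGS minus SBM was 0.15 for that ratio and -0.12 to 0.25 for the other 4.

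**Figure D3:**
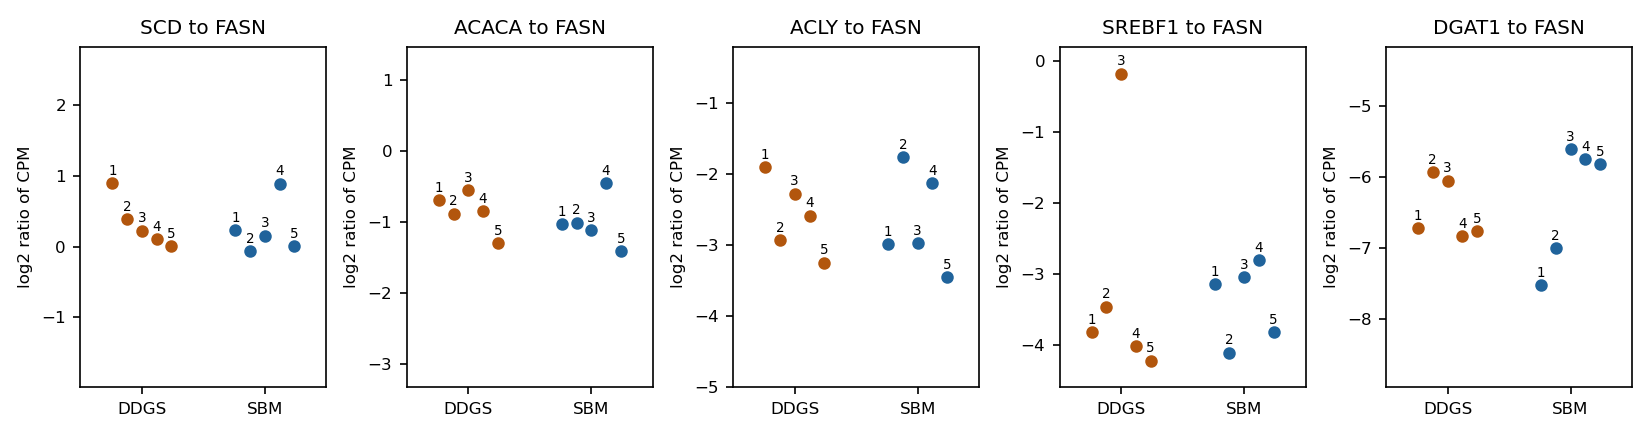
Log2 ratio of the CPM of 5 genes to that of FASN in each steer, by maternal diet, with the replicate number at each point. All panels span the same number of log2 units. DDGS replicate 3 stands inside the range of the other steers in 4 panels and far above it for SREBF1, at -0.17 against -4.22 to -2.81.

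Correlations were computed across the 10 animals. Over the 15 pairs of genes, Pearson's r of log2(CPM + 1) was positive in 15, and 9 passed a permutation test at a Benjamini-Hochberg adjusted p under 0.05 over the 15 pairs (100000 resamples, two-sided). The 6 pairs among ACLY, ACACA, FASN and SCD had r of 0.89 to 0.98 and Spearman's rho of 0.88 to 0.99. FASN and ACACA had r = 0.98 and rho = 0.99 (permutation p = 1e-05 for both, the smallest that the resampling can give; adjusted p = 0.00015). For SCD and ACACA r was 0.98 (permutation p = 3e-05, adjusted p = 0.000225) and rho was 0.88 (permutation p = 0.00174, adjusted p = 0.00435). DGAT1 correlated with these 4 enzymes at r of 0.64 to 0.83 and rho of 0.44 to 0.71. Of these 4 pairs 3 passed the test by r, and 0 of 4 did by rho. As deviations from the mean of each diet group, FASN with DGAT1 passed (adjusted p = 0.0335 in the permutation test), SCD and ACACA with DGAT1 did not (adjusted p = 0.0560 for both), and 7 of the 15 pairs passed in all.

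These correlations leaned on DDGS replicate 3 to different degrees. Without it the 6 pairs of the 4 enzymes kept r of 0.72 to 0.94, and 5 of the 6 passed the exact permutation test over all orders of 9 animals. FASN and ACLY did not (r = 0.72, exact permutation p = 0.0278, adjusted p = 0.0597). DGAT1 with the 4 enzymes fell to r of 0.23 to 0.61 without DDGS replicate 3, and 0 of these 4 pairs passed. Passing the test by r thus depended on this animal. With 9 animals and few DGAT1 counts, a weaker relation among the rest could be missed. Leaving out the 2 animals farthest from the median of the first gene of a pair, DDGS replicate 3 being 1 of them in every pair but SREBF1 with DGAT1, left 4 of 15 pairs past the threshold: FASN with SCD (r = 0.85), FASN with ACACA (r = 0.92), SCD with ACACA (r = 0.93) and ACACA with ACLY (r = 0.88). As deviations from the mean of each diet group, with DDGS replicate 3 kept, the 6 enzyme pairs had r of 0.89 to 0.98. Group means held only 0.308% (ACACA) to 1.21% (FASN) of the sum of squares of the 4 enzymes. Removing them could therefore change r little.

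For SREBF1, whose product is known to activate these enzymes' genes, the correlation with FASN did not pass the test over all 10 animals and passed it without DDGS replicate 3. Over 10 animals its r with FASN was 0.46 (permutation p = 0.182, adjusted p = 0.248) and its rho 0.66 (permutation p = 0.0428, adjusted p = 0.0659). Without DDGS replicate 3 the r with FASN was 0.83 (exact permutation p = 0.00612, adjusted p = 0.0184, 9 animals) and the rho 0.73 (exact permutation p = 0.0311, adjusted p = 0.0584). That animal was singled out after its values were seen, including its high ratio of SREBF1 to FASN. With any other single animal left out, r was 0.38 to 0.53 and did not pass (exact permutation test, adjusted p of 0.198 or more). The r without the 2 animals farthest from the median FASN value, DDGS replicate 3 and SBM replicate 4, was 0.72 (exact permutation p = 0.0565, adjusted p = 0.121, 8 animals). With ACACA, SCD and ACLY the r of SREBF1 was 0.35, 0.24 and 0.27 over 10 animals and 0.65, 0.54 and 0.39 without DDGS replicate 3, and 0 of these pairs passed the test either way. With library totals as the only scaling, the r of SREBF1 with FASN over 10 animals was 0.64 (permutation test, adjusted p = 0.0472), so it also depends on the scaling.

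**Figure D4:**
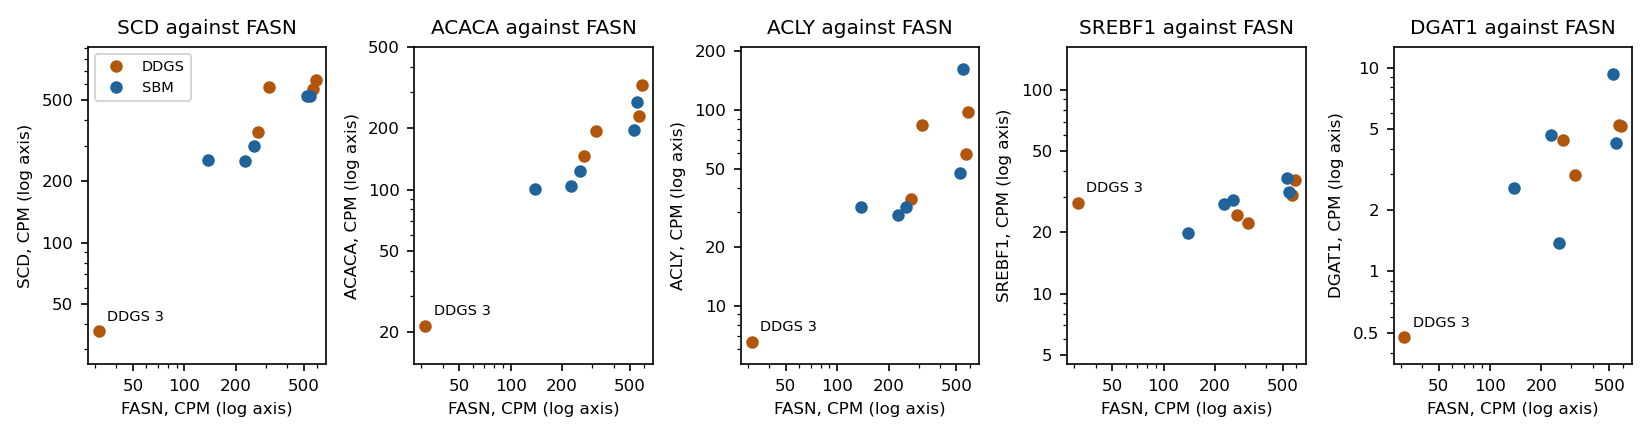
CPM of 5 genes against CPM of FASN in the 10 steers, both on log axes, DDGS orange and SBM blue. In 4 panels DDGS replicate 3 is the point at the lower left, low on both axes, while for SREBF1 it stands at 27.9 CPM beside animals with far more FASN.

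**Figure D5:**
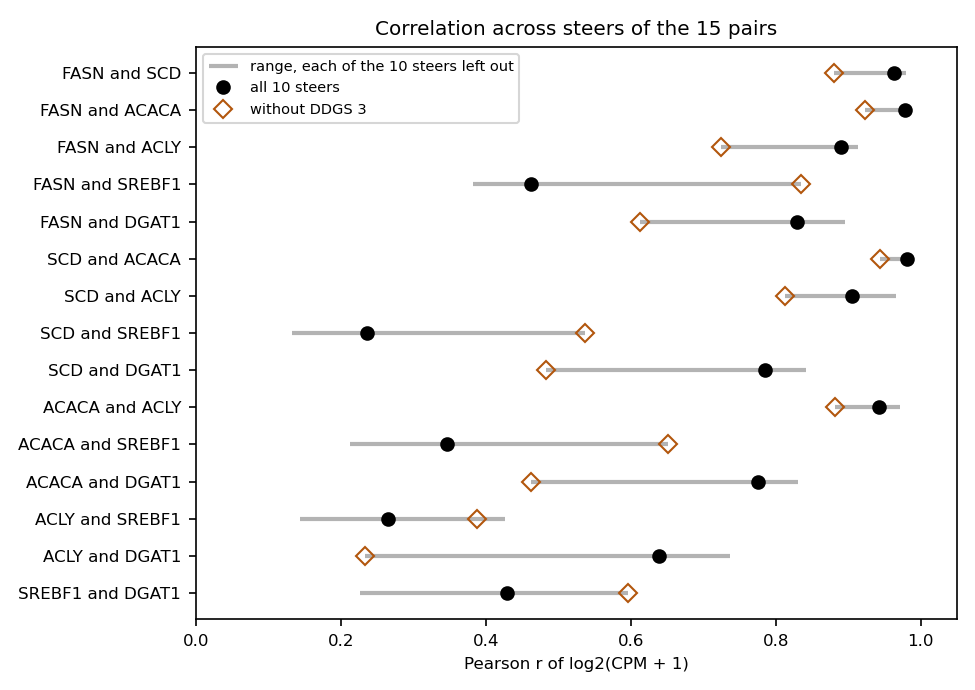
Pearson's r of log2(CPM + 1) across steers for the 15 pairs of genes: all 10 steers (black circles), without DDGS replicate 3 (open diamonds) and the range when each steer in turn is left out (grey bars). Pairs of FASN, SCD, ACACA and ACLY stay at 0.72 or more without DDGS replicate 3, those with DGAT1 fall and those with SREBF1 rise, except that SREBF1 with DGAT1 belongs to both and rises.

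The 4 enzymes also ranked high in likeness to each other among all rows averaging 1 CPM or more. Among 11475 other rows ACACA ranked 1 and SCD 7 by Pearson's r with FASN over the 10 animals, ACLY 73 and DGAT1 154, while SREBF1 ranked 1891. The order was another when DDGS replicate 3 was left out: ACACA ranked 8, SCD 22, SREBF1 63, ACLY 286 and DGAT1 710. The median r of all rows with FASN was 0.01. The rows outside the set with the highest mean r with the 6 genes were ENSBTAG00000003758 (mean r = 0.84, r with FASN = 0.98) and ENSBTAG00000038321 (mean r = 0.82, r with SCD = 0.97), for which no gene names were used. In DDGS replicate 3 ENSBTAG00000003758 stood at 7.34 CPM, below its 17.1 to 59.9 CPM in the other animals. ENSBTAG00000038321 stood at 1.02 CPM there, below its 9.05 to 40.5 CPM in the others. Both rows were chosen by r over the same 10 animals, so low values in DDGS replicate 3 follow largely from that choice. These ranks describe 10 animals of which 1 is far from the rest, and all rows share the same libraries.

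The spread between animals was large for the 4 enzymes also beside genes of like abundance. edgeR's biological coefficient of variation, a measure of spread with counting error taken out, was 0.74 for FASN, 0.67 for SCD, 0.65 for ACACA and 0.79 for ACLY. Among the 500 tested genes nearest in mean expression the medians were 0.24, and these 4 genes exceeded 98.8 to 99.4% of them. In a fit without DDGS replicate 3, chosen after these values were seen, the coefficient was 0.47 for FASN, 0.29 for SCD, 0.36 for ACACA and 0.63 for ACLY, and these genes exceeded 93.8% (SCD) to 98.4% (ACLY) of their neighbours in expression. SREBF1, at 0.26, exceeded 48.2% of its neighbours in expression, and DGAT1, at 0.63, exceeded 84% of them, with 58.2% and 65.6% without DDGS replicate 3. In CPM the coefficient of variation within the DDGS group was 65.2% for FASN, 56.8% for SCD, 61.0% for ACACA, 65.0% for ACLY and 54.6% for DGAT1. Without DDGS replicate 3 it was 38.3%, 23.2%, 33.9%, 39.8% and 23.5% in the same order. In the SBM group it was 54.8%, 38.0%, 45.9%, 94.3% and 68.4%, so the enzymes varied there too. For SREBF1 it was 19.2% in DDGS and 21.9% in SBM animals.

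Of the library measures, the number of rows at 1 went with the enzymes most closely. Its r with log2(CPM + 1) was -0.77 for ACLY (permutation p = 0.0074, adjusted p = 0.079; rho = -0.61, permutation p = 0.0658, adjusted p = 0.373), and -0.61 to -0.71 for the other 4 enzymes. For SREBF1 it was -0.20. Of 18 relations of the 6 genes with this number, the library total and the share of the pair of most abundant rows, 0 passed at an adjusted p under 0.05. When DDGS replicate 3 and SBM replicate 4 were left out, which had the most rows at 1, the r was -0.55 for ACLY and -0.11 to -0.23 for the other 4 enzymes, and for SREBF1 0.25, so the relations of FASN, SCD, ACACA and DGAT1 rest on these libraries. With the library total the r was -0.62 for SREBF1 and -0.08 to 0.33 for the enzymes. With the share of the pair of most abundant rows it was -0.62 for FASN, -0.61 for SREBF1 and -0.46 to -0.55 for the other 4 enzymes. Without DDGS replicate 3 this r was -0.48 for FASN and -0.68 for SREBF1. Without DDGS replicate 3 and SBM replicate 4 it was -0.01 for FASN and -0.43 for SREBF1.

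Some of the counts could include reads of other genes, since the strand setting of the counting is not given in the sources used here. In the RefSeq table the span of DGAT1 overlaps that of HSF1, the span of SREBF1 overlaps those of RAI1 and the microRNA gene MIR33B, and the span of ACACA overlaps those of C19H17orf78 and of 2 entries without a gene name. That of FASN overlaps the microRNA gene MIR10179, and ACLY and SCD overlap no entry. Reads in shared stretches may have been set aside or assigned to either gene, and how many there are is not known.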

How the data were processed

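Total RNA of longissimus muscle from 10 steers (5 DDGS, 5 SBM) was sequenced after TruSeq Stranded Total RNA library preparation, per the labels' protocols. The authors deposited unscaled read counts, in whole numbers, for each Ensembl gene. Per the submitters' processing notes, the UMD3.1 assembly was used with TopHat2 2.0.9, Bowtie2, HTSeq 0.5.3p7 and FastQC 0.10.1. Sources used here give no annotation release, strand setting or filter. Groups and replicate numbers come from the sample titles. The members were set by identifier, without a threshold on values, but they, the gene lists and the tests were chosen with earlier results of these data known.

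All rows were fitted with edgeR 4.0.16 (R 4.3.3): default expression filter, TMM, robust quasi-likelihood test of group alone, with Benjamini-Hochberg adjusted p over 12295 genes. Standard errors come from the coefficient and its F statistic. CPM are counts relative to TMM library sizes. Correlations used log2(CPM + 1). Alternatives were other scalings and filters, values of 1 set to 0, DESeq2 1.42.0, limma 3.58.1 voom with sample weights, non-robust estimates, the replicate block, and each library left out. Scripts were tested on simulated data. Named were all 6 genes and the 2 rows most like them by mean r. The labels do not say that same-numbered animals are related, and replicates rest on the labels as separate animals.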

Additional observations from a re-analysis of the deposited data

Results flagged for a closer look

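Dixon's criterion for groups of 5 (gap to the nearest animal above 0.71 of the range) was applied to 34 groups of values: CPM, log2(CPM + 1) and log2 ratios to FASN in each diet. It marked 5, where chance gives about 1 in 20 groups of independent, normally distributed values. These groups share animals and genes. In DDGS replicate 3, log2(CPM + 1) was 5.02 for FASN against 8.08 to 9.20 in the other DDGS animals, and 5.24 for SCD against 8.46 to 9.30. The log2 ratio of SREBF1 to FASN was -0.17 in the same animal against -4.22 to -3.46 in the other 4. In SBM replicate 2, ACLY stood at 161 CPM against 28.9 to 47.9 CPM in the other SBM animals, and its log2(CPM + 1) was 7.34 against 4.90 to 5.61. On the log2 scale the gap of ACLY was 0.7104 of the range, barely above the limit. In that animal FASN was at 546 CPM and SCD at 523 CPM, beside 525 CPM for both genes in SBM replicate 5.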

How the results depend on the processing

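Over the fits run, the adjusted p of the 6 genes ran from 0.952 to 0.99999, and each fit called 0 of them. The calls over all genes were 0 in edgeR (460 at an unadjusted p under 0.05, and 473 with the replicate block) and limma voom (659), except 1 without DDGS replicate 4, and 15 in DESeq2. The sign of the fold changes turned in some fits. With the replicate block the log2 fold changes were -0.24 for FASN, -0.11 for SCD and -0.088 for ACACA, and with limma voom -0.15 for FASN. With 1 library left out they ran from -0.20 to 0.36 for FASN, 0.05 to 0.52 for SCD, -0.11 to 0.49 for ACACA, -0.38 to 0.69 for ACLY, -0.15 to 0.061 for SREBF1 and -0.50 to 0.17 for DGAT1. The differences of mean log2(CPM + 1) then ran from -0.58 to 0.46 for FASN, -0.45 to 0.57 for SCD, -0.43 to 0.54 for ACACA, -0.48 to 0.45 for ACLY, -0.15 to 0.067 for SREBF1 and -0.47 to 0.15 for DGAT1. The differences of the log2 ratios to FASN ran from -0.064 to 0.24 for SCD, 0.05 to 0.29 for ACACA, -0.13 to 0.30 for ACLY, -0.49 to 0.52 for SREBF1 and -0.41 to 0.065 for DGAT1. With the stricter filter DGAT1 was not tested. Same-numbered animals had correlations of their deviations from group means of -0.08 to 0.10, and 2 of 5 animals matched their own number best. Such correlations cannot decide whether same-numbered animals were paired in the design. The count of pairs of genes past the threshold was 9, and 4 without the 2 farthest animals, 6 to 10 with 1 library left out, 12 with library totals as the only scaling, 7 as deviations from group means and 6 by rho. With a limit of 2-fold in place of 4-fold, chosen after the values were seen, DDGS replicate 3 lay below all others in 5 of the 6 genes. It did so in 663 of the 11476 rows, or 5.78%. SBM replicate 5 met this limit in nearly as many rows, 658 or 5.73%. It met the limit in 0 of the 6 genes, but could not do otherwise. DDGS replicate 3 was lowest for every enzyme, and SREBF1 spanned only 1.88-fold. DGAT1, with 7 to 178 counts, is the gene most limited by depth.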
